A study of Mus musculus with 26 samples.

Results

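The 10 genes described here encode transcription factors that pattern the developing heart or mark its fibroblasts: Tcf21, Hand2, Gata4, Gata6, Tbx20, Tbx18, Tbx5, Tbx4, Tbx3 and Tbx2. They were taken by symbol from the 24421 genes in the count tables of 26 bulk RNA sequencing libraries of sorted mouse cardiac stromal cells. The question put to the tables was whether stromal cells kept or lost these factors after myocardial infarction. Hearts came from mice labelled C57BL/6, of the strain B6.129S4-Pdgfratm11(EGFP)Sor/J, in which a histone-tagged green fluorescent protein reports Pdgfra, the gene of a receptor found on fibroblasts and other mesenchymal cells. All groups carry this reporter allele (PDGFRa H2BEGFP+), and all cells were sorted as GFP positive and free of CD45 and CD31, the surface proteins of leukocytes and endothelium. The cells were then split into a positive and a negative gate by SCA-1, the product of Ly6a on the cell surface. Undamaged hearts gave 5 positive and 4 negative libraries, and hearts taken at 7, 14 and 28 days after the left anterior descending coronary artery was tied gave 3 and 3, 2 and 2, and 4 and 3. The gate of 4 of the 6 day 7 libraries is stated only in the name of the deposited table and not in the labels. The labels give neither age nor the number of animals behind a library, so each p measures the spread between libraries, which may in part be technical. GFP reports Pdgfra and not one cell type, so a sort can hold several kinds of mesenchymal cell.

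These factors form a regulatory network that is switched on in heart progenitors and partly kept in adult heart cells. GATA factors bind DNA through zinc fingers, HAND and TCF21 proteins bind E-boxes as basic helix-loop-helix dimers, and T-box factors share a DNA-binding domain that recognises the T-box element. In mouse, cardiac fibroblasts arise largely from the epicardium, where Tcf21 and Tbx18 are expressed, and adult cardiac fibroblasts are known to retain several heart-specific factors that fibroblasts of other organs lack.

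Counts assigned to genes ranged from 6.79 M to 48.8 M reads per library, at which 3 counts equal 0.0575 to 0.422 CPM (counts scaled to a common library size with TMM factors). Ly6a lay between 279 and 1290 CPM in the 14 positive and between 18.8 and 91.9 CPM in the 12 negative libraries, and the 6 day 7 libraries fell on the side their tables are named for. Pdgfra was at 341 to 807 CPM in each library. Xist, the RNA that silences an X chromosome in female cells, exceeded 20 CPM in 4 of 6 day 7 and 2 of 4 day 14 libraries and in no other. No undamaged library exceeded 0.434 CPM, so sex as read from Xist is partly confounded with time. Its part in the time differences cannot be told apart here. Replicate codes in the titles are of 2 kinds, a bare code (letter-coded) and a code that follows a number (prefixed), and no day 7 or day 14 library is letter-coded.

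All 10 factors were detected and passed the low-count filter. Counts per kilobase (kb) of annotated exon, which allow levels of different genes to be set side by side, placed Tcf21 first in undamaged hearts with 97.1 ± 20.2 CPM per kb (SD, n = 9). Tbx20 followed with 49.99 ± 9.90, Gata4 with 30.5 ± 4.80, Hand2 with 15.3 ± 3.94, Gata6 with 13.4 ± 2.05, Tbx18 with 9.95 ± 0.747 and Tbx2 with 3.47 ± 1.16 CPM per kb. Tbx5 with 1.05 ± 0.800, Tbx3 with 0.565 ± 0.408 and Tbx4 with 0.425 ± 0.365 CPM per kb were the lowest. Neighbours in this order overlapped between libraries, except that each Tbx18 value exceeded each Tbx2 value. At day 7 Hand2 stood below Tbx18, with 7.70 ± 0.854 against 9.35 ± 1.14 CPM per kb (SD, n = 6 each), although their libraries overlapped.

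**Figure D1:**
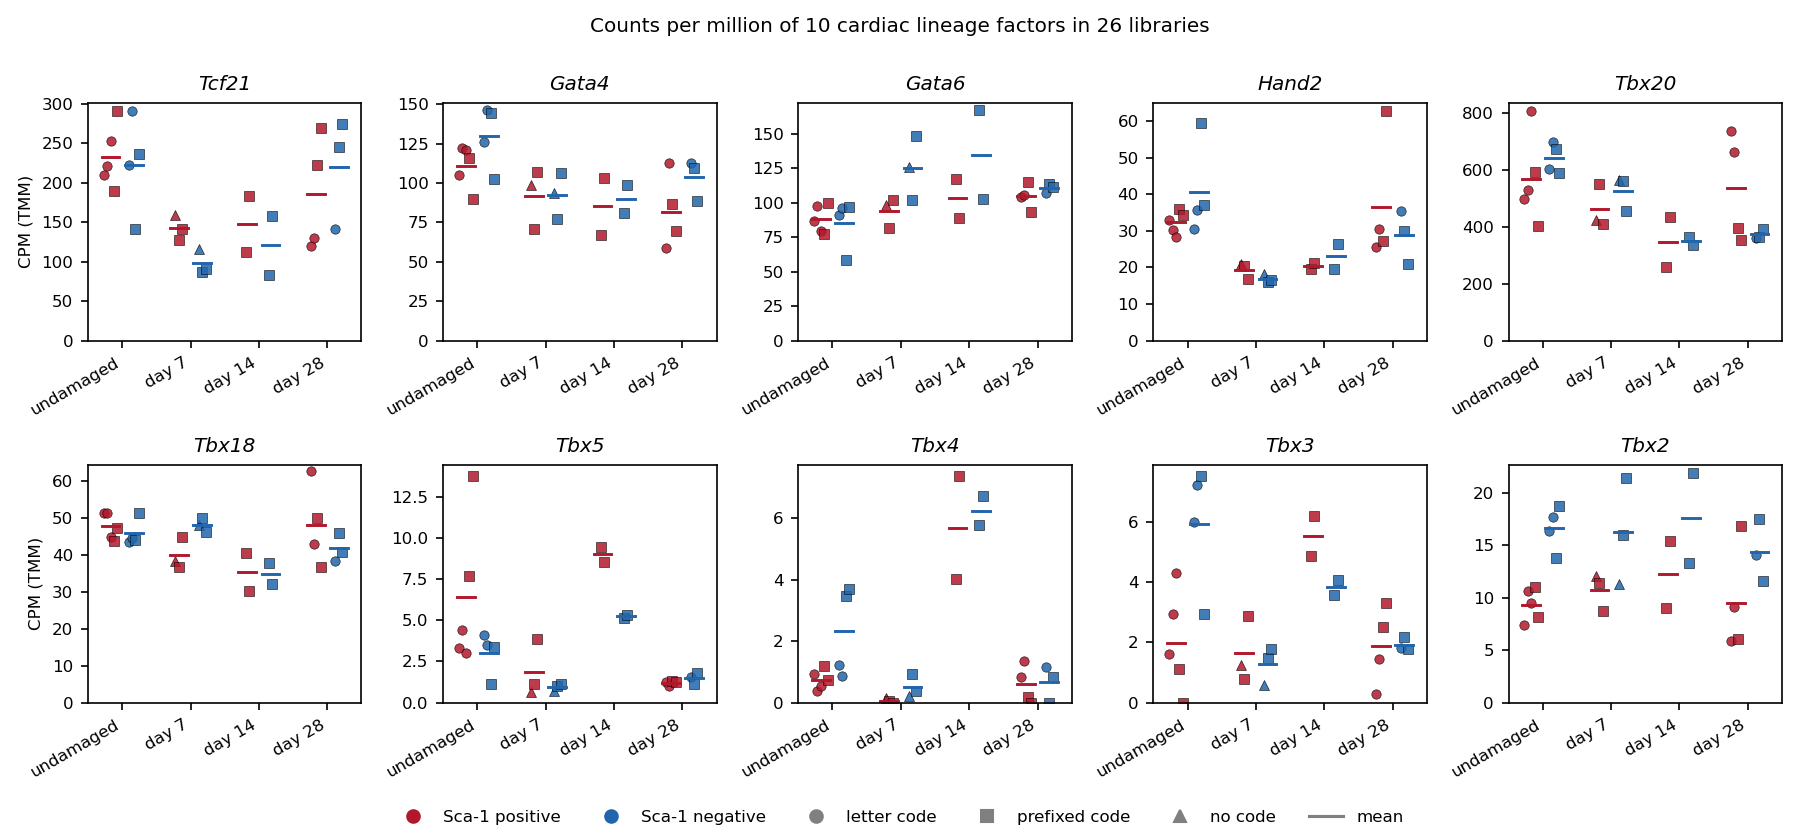
CPM of each factor (vertical axes, from 0) in each of the 26 libraries, by time and gate, with bars at gate means and marker shapes for the code family. Hand2 was at 16.0 to 20.8 CPM in the 6 day 7 libraries, below its range of 28.3 to 59.4 CPM in undamaged hearts, and Tbx4 peaked at 4.03 to 7.37 CPM at day 14.

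Against undamaged hearts, and with both gates averaged, 4 factors fell and none rose at day 7, 4 fell and 2 rose at day 14, and 1 fell at day 28. A call is an adjusted p under 0.05 over the 14052 genes tested with edgeR's quasi-likelihood test. At day 7 24.6% of all genes tested were called, 11.7% lower and 12.8% higher, and the 4 factors that fell were Tcf21, Hand2, Tbx5 and Tbx4. At day 14 10.9% of genes were called, 3.77% lower and 7.15% higher, against 6 of the 10 factors: Tcf21, Hand2, Tbx20 and Tbx18 fell, and Gata6 and Tbx4 rose. At day 28 6.12% of genes were called, 2.2% lower and 3.92% higher, and of the 10 factors Tbx5 fell. The median log2 difference over the 10 factors was -0.66 at day 7, -0.09 at day 14 and -0.28 at day 28, beside -0.03, -0.02 and -0.00096 over all genes tested. With the replicate code as a random block in limma-voom, Tcf21 and Hand2 kept their calls at day 7 and Tbx5 and Tbx4 did not (adjusted p = 0.0569 and 0.0549), Gata6 and Hand2 lost theirs at day 14 (0.0928 and 0.0526), and none was called at day 28. In sorted pools, fewer cells of a type and less RNA per cell cannot be told apart.

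**Figure D2:**
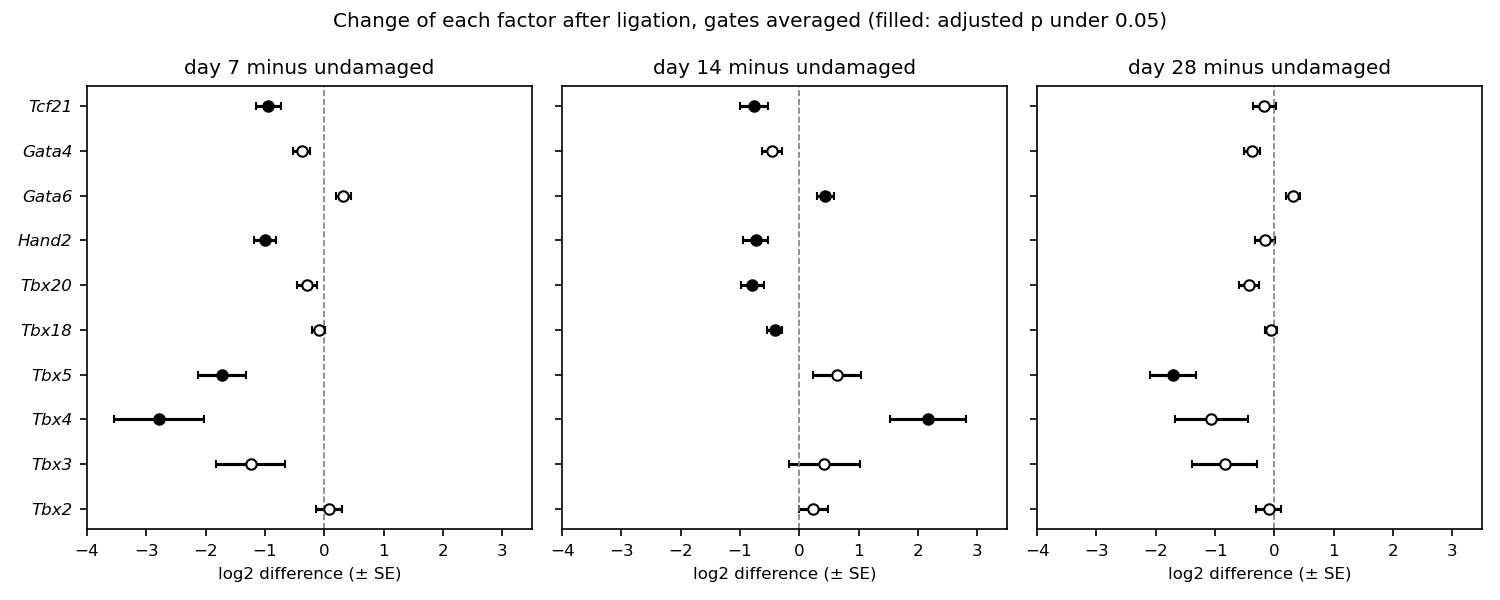
Log2 difference from undamaged hearts (horizontal axis, ± SE) of each factor at 7, 14 and 28 days, gates averaged, with filled points at an adjusted p under 0.05. Hand2 and Tcf21 lie left of 0 at days 7 and 14, Tbx5 is near -1.7 at days 7 and 28, and Tbx4 is at -2.78 at day 7 and at 2.17 at day 14.

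Tcf21 and Hand2, both basic helix-loop-helix factors, fell at days 7 and 14, and at day 28 neither passed against undamaged hearts. Tcf21 is required in mouse for epicardial cells to become cardiac fibroblasts (ENSMUSG00000045680.8, GRCm38 chromosome 10, 22817281 to 22820174, minus strand). It had 87.3, 122 and 159.6 CPM (lowest, median, highest) in day 7 libraries, against 141, 222 and 291 CPM in undamaged ones. The ranges met only at the undamaged negative library A6, which held 141 CPM. The fitted log2 difference was -0.94 ± 0.207 (SE, edgeR adjusted p = 0.00174). At day 14 Tcf21 had 112 and 183 CPM in the positive and 83.6 and 158 CPM in the negative libraries, a log2 difference of -0.77 ± 0.238 (edgeR adjusted p = 0.0371). Day 28 libraries had 119.6, 222 and 274 CPM, which did not differ by this test from undamaged hearts (-0.17 ± 0.194, edgeR adjusted p = 0.675, 95% interval -0.58 to 0.24). Against day 7, where 12.9% of all genes were called, 6.58% higher and 6.27% lower, Tcf21 rose by 0.77 ± 0.216 at day 28 (edgeR adjusted p = 0.0205). The 4 prefixed day 28 libraries held 222 to 274 CPM, whereas the 3 letter-coded ones held 119.6, 130.1 and 141 CPM, within the day 7 range, and were lower than letter-coded undamaged libraries (-0.87, edgeR adjusted p = 0.00408).

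Hand2, which mouse embryos need for the right ventricle and for limb patterning (ENSMUSG00000038193.4, chromosome 8, 57320983 to 57324633, plus strand), had 16.0, 17.5 and 20.8 CPM at day 7, against 28.3, 34.4 and 59.4 CPM in undamaged hearts. No day 7 library reached the lowest undamaged one, as was so for 6.4% of all genes tested. Its log2 difference was -1.003 ± 0.184 (edgeR adjusted p = 0.000291). At day 14 it had 19.6 and 21.3 CPM in the positive and 19.6 and 26.5 CPM in the negative libraries, again all below the undamaged range, which held for 6.39% of genes (log2 difference -0.74 ± 0.209, edgeR adjusted p = 0.0217). At day 28 it had 20.8, 30.03 and 62.6 CPM, a difference of -0.16 ± 0.172 from undamaged hearts (edgeR adjusted p = 0.652, 95% interval -0.52 to 0.20). Against day 7 the day 28 value was higher by 0.84 ± 0.192 (edgeR adjusted p = 0.00505), with each day 28 library above each day 7 one, as for 4.95% of genes, although the closest pair differed by little (20.83 and 20.80 CPM). With the code as a random replicate block, neither Tcf21 (0.60, limma-voom adjusted p = 0.0935) nor Hand2 (0.71, 0.0726) was called between day 28 and day 7. Across the 26 libraries Tcf21 and Hand2 correlated at r = 0.57, and at 0.07 once group means were removed, a description over libraries that share times and codes.

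Because Tcf21 and Hand2 fell at the same times, the 250 bases before their RefSeq starts (GRCm38.p6) were searched for motifs and are printed here, for Tcf21 without the last 25. Capitals mark matches on either strand to CANNTG (the E-box core), AGATAA (1 form of the GATA motif) and GGTGTG (the core of the T-box element). Other forms of the GATA motif were not searched, and TGATAA, which the Hand2 window holds, is in lower case.
Tcf21, chr10:22820169-22820393, minus strand: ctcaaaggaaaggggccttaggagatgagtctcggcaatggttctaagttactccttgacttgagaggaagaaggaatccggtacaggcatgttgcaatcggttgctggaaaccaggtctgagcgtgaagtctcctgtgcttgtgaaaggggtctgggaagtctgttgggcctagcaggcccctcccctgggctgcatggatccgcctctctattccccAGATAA
Hand2, chr8:57320733-57320982, plus strand: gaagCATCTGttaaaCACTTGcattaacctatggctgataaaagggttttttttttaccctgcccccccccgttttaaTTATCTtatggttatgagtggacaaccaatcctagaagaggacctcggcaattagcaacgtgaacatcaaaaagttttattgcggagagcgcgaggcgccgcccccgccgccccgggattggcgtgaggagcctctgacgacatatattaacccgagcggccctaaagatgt
Each window held 1 AGATAA match, which starts 31 bases before the RefSeq start of Tcf21 and, on the other strand, 172 bases before that of Hand2, and 10% of the 32851 RefSeq promoter windows of this length hold one. The RefSeq start of Tcf21 lies 31 bases inside the GENCODE gene whose coordinates are given above, so its match sits at the first bases of that gene, while the starts of Hand2 are the same in both annotations. Hand2 also had 2 CANNTG matches, found in 66.2% of windows, and Tcf21 had none. Neither window held GGTGTG, which 16.3% of windows do. Among the other factors with a RefSeq window, Tbx20, Tbx18 and Tbx4 held no AGATAA. The RefSeq start of Tbx4 lies 10343 bases inside its GENCODE gene, so its window is not the one before the GENCODE start. These are matches of letters, not measured binding.

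Gata4 and Gata6 are zinc-finger factors needed for heart muscle and epicardial development in mouse. Over the 4 times Gata4 averaged 87.4 to 119 CPM and Gata6 87.0 to 119 CPM. Gata4 (ENSMUSG00000021944.15, chromosome 14, 63198922 to 63271692, minus strand) had 70.6, 96.0 and 107 CPM at day 7, against 89.6, 121 and 146 CPM in undamaged hearts. The ranges overlapped, and its log2 differences of -0.38 ± 0.145, -0.46 ± 0.167 and -0.38 ± 0.139 at days 7, 14 and 28 did not pass (edgeR adjusted p = 0.0581, 0.0835 and 0.107). Each of these 3 passed with DESeq2 (adjusted p = 0.0425, 0.0495 and 0.0492). Gata6 (ENSMUSG00000005836.10, chromosome 18, 11052064 to 11085635, plus strand) had 117 and 89.0 CPM in the positive and 167 and 102 CPM in the negative day 14 libraries, against 58.6, 90.8 and 99.7 CPM in undamaged hearts. The positive D9 library overlapped the undamaged range, and the rise of 0.44 ± 0.142 had the highest adjusted p of the day 14 calls (edgeR adjusted p = 0.047). Positive differences of 0.32 ± 0.127 at day 7 and 0.31 ± 0.122 at day 28 did not pass (edgeR adjusted p = 0.0668 and 0.137). DESeq2 called the rise of Gata6 at day 7 (adjusted p = 0.0478). In the negative gate alone Gata6 had 102, 126 and 148 CPM at day 7, against 58.6 to 97.1 CPM in undamaged hearts. The libraries did not overlap, as for 23.5% of all genes tested, and the rise was called (log2 difference 0.55 ± 0.183, edgeR adjusted p = 0.0427). That call ended without negative E5 (0.58, 0.0539), negative A6 (0.43, 0.105), positive E1 (0.55, 0.051), the uncoded negative day 7 library (0.55, 0.103), negative 4B (0.41, 0.212), positive D1 (0.54, 0.0508) or negative B4 (0.55, 0.0508). An antisense transcript that overlaps Gata6, 1010001N08Rik, had a median of 19 counts per library.

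Tbx20 and Tbx18 fell at day 14 only, by the threshold used. Tbx20, which mouse hearts need for chamber growth and valve formation (ENSMUSG00000031965.15, chromosome 9, 24718138 to 24774303, minus strand), had 259 and 433 CPM in the positive and 364 and 335 CPM in the negative day 14 libraries, against 404, 594 and 809 CPM in undamaged hearts. Of the 4 libraries 1 overlapped the undamaged range, and the log2 difference was -0.79 ± 0.198 (edgeR adjusted p = 0.00912). At day 7 it had 411, 503 and 567 CPM (-0.29 ± 0.168, edgeR adjusted p = 0.227). At day 28 the 2 letter-coded positive libraries held 738 and 662 CPM, while the other 5 libraries lay between 352 and 396 CPM, and the difference from undamaged hearts did not pass (-0.43 ± 0.162, edgeR adjusted p = 0.118). Tbx18, a factor of the epicardium and of the sinus node region (ENSMUSG00000032419.8, chromosome 9, 87702800 to 87731260, minus strand), varied least of the 10 relative to its mean in undamaged hearts, with 43.6, 44.9 and 51.5 CPM. The day 14 libraries held 40.6 and 30.2 CPM in the positive and 37.9 and 32.1 CPM in the negative gate. All lay below that range, without overlap, as for 6.39% of all genes tested (-0.41 ± 0.124, edgeR adjusted p = 0.0303). In each gate the lower value was that of D9, the day 14 code with Xist above 20 CPM. Without the libraries above 20 CPM of Xist, the day 14 difference of Tbx18 was -0.26, from 1 library a gate. Its differences at day 7 (-0.09 ± 0.107) and day 28 (-0.06 ± 0.103) were near 0 (edgeR adjusted p = 0.577 and 0.79), with 95% intervals of -0.32 to 0.13 and -0.28 to 0.15.

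Tbx5 and Tbx4, which are expressed in the forelimb and hindlimb buds, were low and had the largest fitted log2 differences of the 10 at days 7 and 28. Tbx5, whose human mutations cause limb and septal defects (ENSMUSG00000018263.11, chromosome 5, 119832668 to 119885219, plus strand), had 0.624, 1.07 and 3.89 CPM at day 7, against 1.13, 3.48 and 13.8 CPM in undamaged hearts. The highest undamaged values were those of the prefixed positive libraries A6 (7.71 CPM) and B7 (13.8 CPM), and the other 7 lay between 1.13 and 4.39 CPM. The log2 difference at day 7 was -1.73 ± 0.406 (edgeR adjusted p = 0.00293). At day 14 Tbx5 had 9.45 and 8.53 CPM in the positive and 5.12 and 5.33 CPM in the negative libraries, each above the highest day 7 library, a gap that was not tested, and within the undamaged range (0.63 ± 0.407 from undamaged, edgeR adjusted p = 0.378). At day 28 it was again low and even across libraries, with 1.01, 1.27 and 1.78 CPM, and all 7 libraries lay below 8 of the 9 undamaged ones, the exception being negative A6 with 1.13 CPM (-1.72 ± 0.387, edgeR adjusted p = 0.00803). In the positive gate alone, where 2.14% of genes were called at day 28, no library overlapped, as for 5.53% of genes: 1.27, 1.01, 1.31 and 1.26 CPM at day 28, against 3.31, 4.39, 3.01, 7.71 and 13.8 CPM in undamaged hearts (-2.41 ± 0.523, edgeR adjusted p = 0.014). The call at day 28 was not made by limma-voom, without the block (-1.56, adjusted p = 0.0825) or with it (-1.49, 0.218).

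Tbx4 (ENSMUSG00000000094.12, chromosome 11, 85886422 to 85916097, plus strand) moved in opposite directions at days 7 and 14. At day 7 it had 0, 0.182 and 0.943 CPM, from at most 12 counts in a library, against 0.38, 0.922 and 3.69 CPM in undamaged hearts (-2.78 ± 0.752, edgeR adjusted p = 0.00855). At day 14 it had 4.03 and 7.37 CPM in the positive and 5.78 and 6.71 CPM in the negative libraries, from 81 to 361 counts. Each Tbx4 value was above the highest undamaged library, without overlap, as for 6.39% of all genes tested (2.17 ± 0.638, edgeR adjusted p = 0.0272). At day 28 it had 0, 0.82 and 1.36 CPM, with no call against undamaged hearts (-1.06 ± 0.621, edgeR adjusted p = 0.345). Libraries with 0 counts were the positive day 7 library 4A, the positive day 28 library B6 and the negative day 28 library B4, where 3 counts would equal 0.201, 0.343 and 0.212 CPM. Such limits cover counting error only, since counts without molecular identifiers include copies made by PCR. Among undamaged libraries the prefixed negative ones, A6 and B7, held 3.48 and 3.69 CPM, and the other 7 lay between 0.38 and 1.23 CPM.

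Tbx3 and Tbx2 are transcriptional repressors of the atrioventricular canal, and Tbx3 also marks the conduction system. Their genes adjoin those of Tbx5 and Tbx4: Tbx3 (ENSMUSG00000018604.18, chromosome 5, 119670669 to 119684724) lies 147.9 kb from Tbx5, and Tbx2 (ENSMUSG00000000093.6, chromosome 11, 85832551 to 85841948) lies 44.5 kb from Tbx4, each on the plus strand like its neighbour. Neither passed at any time. Tbx3 had 0.601, 1.37 and 2.88 CPM at day 7, against 0, 2.95 and 7.52 CPM in undamaged hearts, and the ranges overlapped (-1.24 ± 0.58, edgeR adjusted p = 0.125). At day 14 Tbx3 had 4.87 and 6.18 CPM in the positive and 3.58 and 4.08 CPM in the negative libraries, all above the day 7 range without a test of that gap, and at day 28 it had 0.282, 1.80 and 3.32 CPM. Tbx2 had 8.71, 11.7 and 21.4 CPM at day 7, against 7.38, 11.03 and 18.7 CPM in undamaged hearts (0.08 ± 0.212, edgeR adjusted p = 0.819, 95% interval -0.36 to 0.53). It ended at -0.10 ± 0.206 at day 28 (edgeR adjusted p = 0.848). An antisense gene that overlaps Tbx3 is annotated (Tbx3os1), as are ones over Hand2, Tbx18 and Tcf21, and since the strand setting of the counting is not given, reads of such partners cannot be told apart from those of the factor.

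Several of these calls depended on which libraries entered. At day 7 the prefixed libraries alone gave the same 4 calls, with log2 differences of -0.97 for Tcf21, -1.25 for Hand2, -1.60 for Tbx5 and -3.58 for Tbx4 (edgeR adjusted p = 0.0128, 0.00374, 0.0268 and 0.0175). With only the 2 day 7 libraries whose gate is in the labels, Tbx5 (-2.75, edgeR adjusted p = 0.00956) was the 1 call left, and Tcf21 (-0.74), Hand2 (-0.90) and Tbx4 (-2.85) had edgeR adjusted p = 0.223, 0.0801 and 0.184. Without the 6 libraries with Xist above 20 CPM, which leaves 1 day 7 library a gate, none of the 10 was called at day 7, with differences of -1.11 for Tcf21, -1.01 for Hand2, -2.04 for Tbx5 and -2.43 for Tbx4 (edgeR adjusted p = 0.0501, 0.0688, 0.0696 and 0.325). At day 14 the same step left 1 library a gate, both of code D1, with differences of -1.23 for Tcf21 and 0.69 for Gata6. The prefixed libraries alone kept the day 14 calls of Hand2 (-0.93, edgeR adjusted p = 0.0252) and Tbx20 (-0.70, 0.028).

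The code families of day 28 gave different values for Tcf21, Tbx4 and Tbx3. Letter-coded day 28 libraries had 120 to 141 CPM of Tcf21 against 209.5 to 291 CPM in letter-coded undamaged ones (-0.87, edgeR adjusted p = 0.00408). Prefixed day 28 libraries had 222 to 274 CPM against 141 to 290.2 CPM in prefixed undamaged ones (0.23, edgeR adjusted p = 0.574). Tbx4 was lower at day 28 among prefixed libraries (-3.08, edgeR adjusted p = 0.0361), while letter-coded ones gave 0.51 (edgeR adjusted p = 0.519). Tbx3 was lower among letter-coded libraries (-1.75, edgeR adjusted p = 0.0353), and prefixed ones gave 0.50 (edgeR adjusted p = 0.709). Tbx5 was lower in both families (-1.49, edgeR adjusted p = 0.012 letter-coded and -1.87, 0.0214 prefixed). The difference between the families was not tested.

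**Figure D3:**
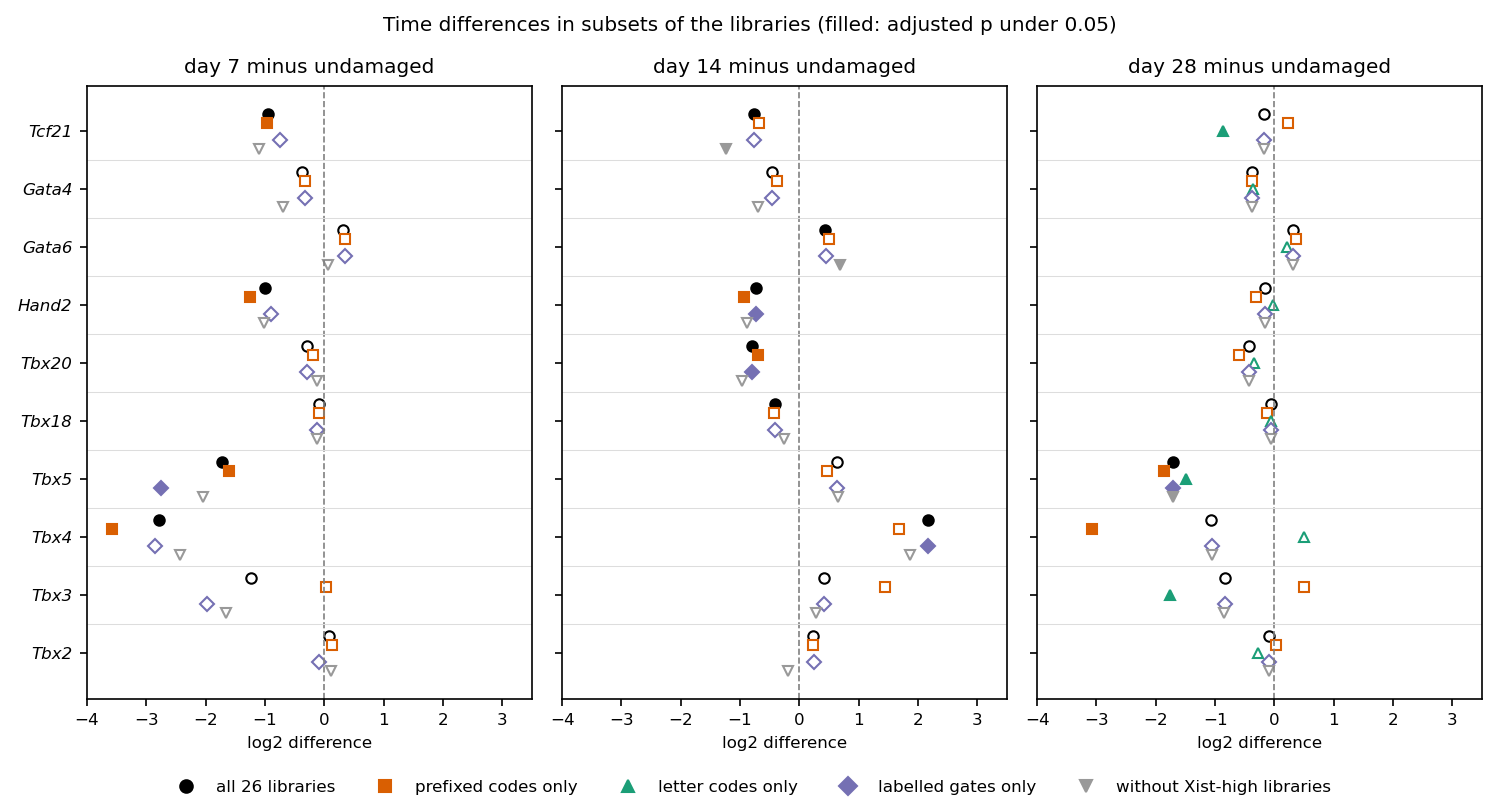
Log2 difference from undamaged hearts (horizontal axis) of each factor at 3 times, in the fit of all 26 libraries and in subsets by code family, labelled gate and Xist level, with filled markers at an adjusted p under 0.05. Tcf21 at day 28 was at -0.87 in letter-coded and at 0.23 in prefixed libraries, and Tbx5 at day 28 stayed between -1.87 and -1.49.

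The day 14 calls rest on 4 libraries of 2 codes, D1 and D9, and each was lost without some single library, although leaving out 1 keeps the other library of its code in the fit. Without the negative library D1 Tcf21 was at -0.58, Hand2 at -0.64, Tbx18 at -0.48, Gata6 at 0.24 and Tbx4 at 2.22 (edgeR adjusted p = 0.261, 0.159, 0.0574, 0.48 and 0.0823), and only Tbx20 was called. Without the positive library D1 Tcf21 was at -0.62, Hand2 at -0.71, Tbx20 at -0.63, Gata6 at 0.33 and Tbx4 at 2.35 (0.228, 0.107, 0.101, 0.292 and 0.0542), and only Tbx18 was called. Without the negative library D9 Tbx20 was at -0.74, Tbx18 at -0.33 and Tbx4 at 2.14 (0.0552, 0.206 and 0.0834). Without the positive library D9 Hand2 was at -0.77, Tbx18 at -0.31 and Tbx4 at 1.92 (0.0724, 0.234 and 0.146). Undamaged libraries mattered too: leaving out negative A6 ended the call of Hand2 (-0.59, 0.0511), leaving out negative E5 (2.07, 0.0521) or negative F3 (2.04, 0.0508) that of Tbx4, and leaving out positive F3, negative F3, negative B7 or positive B7 that of Tcf21 (-0.75, -0.69, -0.74 and -0.71, with 0.0531, 0.0696, 0.0545 and 0.0578). The call of Gata6 ended without any one of 16 of the 26 libraries, with log2 differences over all 26 omissions of 0.24 to 0.62 and, outside the D1 libraries, adjusted p of at most 0.0731 among the lost calls. The day 28 rise of Tcf21 over day 7 ended without positive 1A (0.73, 0.0523), negative 1B (0.73, 0.0503), negative B4 (0.72, 0.0511) or negative B6 (0.67, 0.0701). The day 7 calls of Tcf21, Hand2, Tbx5 and Tbx4 and the day 28 call of Tbx5 held without each of the 26 libraries in turn, and without positive B7 the count at day 7 was 7, with Gata4, Gata6 and Tbx3 added.

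Within a gate fewer calls were made at days 7 and 14, while at day 28 the positive gate gave the 1 call of Tbx5 described above. In the negative gate at day 7, where 15.7% of genes were called, Tcf21 had 87.3, 91.2 and 117 CPM against 141 to 291 CPM in undamaged hearts (-1.18 ± 0.301, edgeR adjusted p = 0.00899), and Hand2 had 16.0, 16.6 and 18.1 CPM against 30.4 to 59.4 CPM (-1.26 ± 0.268, edgeR adjusted p = 0.00208). Neither gene's libraries overlapped, which in that comparison held for 23.5% of genes. In the positive gate at day 7, with 5.34% of genes called, none of the 10 passed. There 4 had an unadjusted p under 0.05, as did 2643 of the 14052 genes tested, and DESeq2 called 2 (Tbx5 and Tbx4). Hand2 was lower there by 0.74 in log2 terms (edgeR adjusted p = 0.0906), and Tcf21 had 128 to 159.6 CPM against 189.6 to 290.2 CPM in undamaged hearts, without overlap, as for 16.8% of genes. At day 14 none of the 10 passed in the positive gate, where 2.4% of genes were called, or in the negative gate, where 5.1% were. An unadjusted p under 0.05 was held by 4 and 6 of the 10, beside 1540 and 2403 of all 14052 genes. DESeq2 called 1 and 2 of the 10. At day 28 none passed in the negative gate, where 1.52% of genes were called. There 1 had an unadjusted p under 0.05, beside 2070 of all genes, and DESeq2 called 1 (Tbx20). The share of all genes that DESeq2 called within a gate was not counted. None of the 10 changes from undamaged hearts differed between the gates at day 7, 14 or 28 by the interaction test, which called 0.00712% of genes at day 7 and 0% at days 14 and 28. At day 28 Tbx20 alone had an unadjusted p under 0.05 for it (0.70 ± 0.322, edgeR adjusted p = 0.772), and at days 7 and 14 no factor did. Of all genes 840, 256 and 898 had one at days 7, 14 and 28.

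The gates themselves were not separated by any of the 10 factors at the threshold used, while 4.1% of all genes were called between the undamaged gates. Tbx2 came closest: undamaged positive libraries had 7.38, 10.7, 9.49, 11.03 and 8.13 CPM, against 16.3, 17.7, 13.8 and 18.7 CPM in undamaged negative ones. No positive library reached a negative one, as for 7.05% of all genes, and the log2 difference was -0.83 ± 0.268 (edgeR adjusted p = 0.0827, 95% interval -1.40 to -0.27). DESeq2 and limma-voom called Tbx2, and limma-voom with the code as a random replicate block called Tbx2 and Tbx3. In undamaged hearts Tbx5 (1.09 ± 0.48), Tbx4 (-1.62 ± 0.769) and Tbx3 (-1.57 ± 0.696) had unadjusted p under 0.05 and edgeR adjusted p = 0.224, 0.27 and 0.228. With Tbx2 that makes 4 of the 10 under 0.05 unadjusted, beside 2502 of the 14052 genes tested. The positive minus negative difference of Tbx2 was also negative at days 7, 14 and 28, at -0.60 ± 0.33, -0.52 ± 0.397 and -0.61 ± 0.31, none of which passed, with positive B6 (16.8 CPM) above 2 of 3 negative libraries at day 28. For Tcf21 the undamaged difference was 0.06 ± 0.256 (95% interval -0.47 to 0.60), and for Tbx18 0.06 ± 0.136 (-0.23 to 0.34). At days 7, 14 and 28 0.206%, 0.0285% and 0.968% of genes were called between the gates. An unadjusted p under 0.05 was held by 2, 0 and 1 of the 10, beside 707, 305 and 2298 of all genes. A fixed replicate block for the code in edgeR gave 0 calls at each time.

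**Figure D4:**
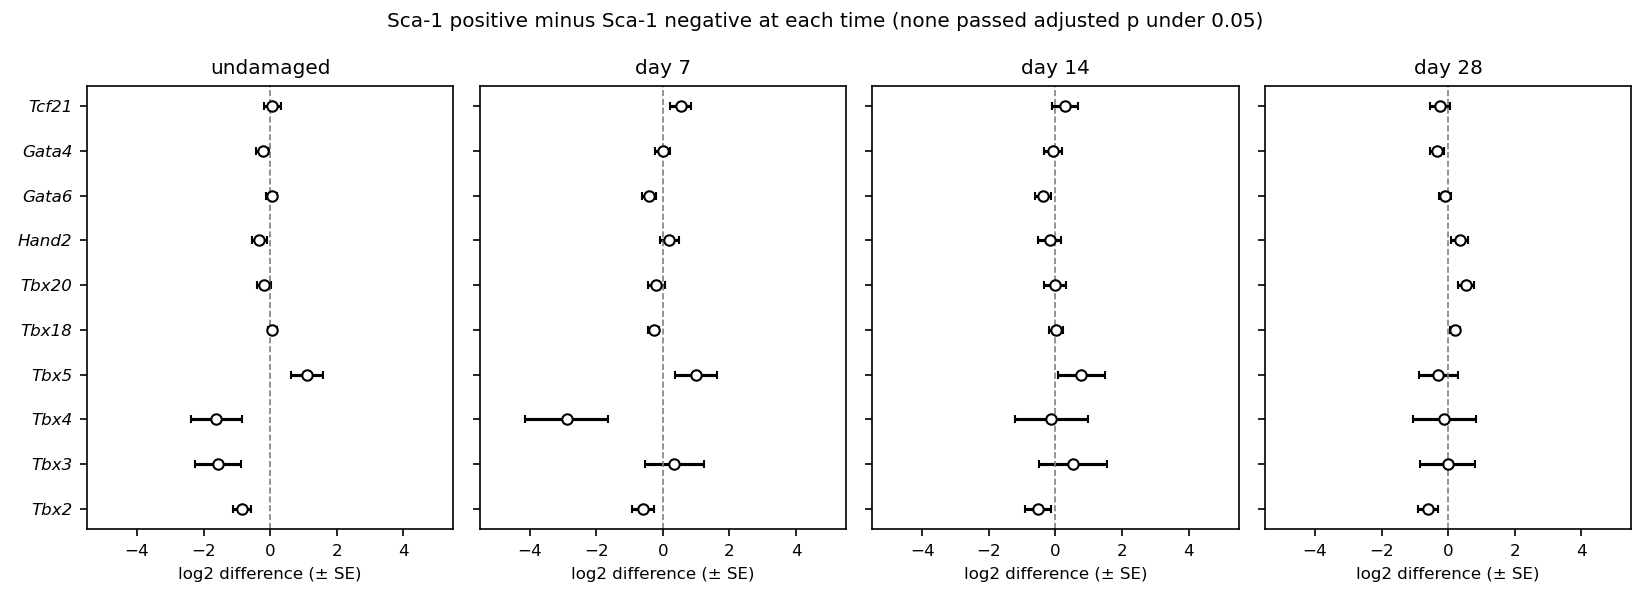
Log2 difference between Sca-1 positive and Sca-1 negative libraries (horizontal axis, ± SE) of each factor at each time. Tbx2 is left of 0 at all 4 times, from -0.83 in undamaged hearts to -0.52 at day 14, and all points are open because none passed.

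Genes known to act with these factors were called in both directions at days 7 and 14. Of 31 listed cardiac partner genes 24 were tested. At day 7 4 rose and 2 fell, at day 14 5 rose and 1 fell, and at day 28 1 rose, beside 24.6%, 10.9% and 6.12% of all genes called, so that the 6 of 24 at day 7 are near the share of all genes. The median log2 differences were 0.16, 0.06 and 0.05. Tead1, the DNA-binding partner of YAP, had 145, 172 and 251 CPM at day 7, against 80.7, 100.4 and 114 CPM in undamaged hearts, without overlap, as for 6.4% of all genes (0.89 ± 0.102, edgeR adjusted p = 8.31e-07). Foxc2, a forkhead factor of mesenchyme and vessels, rose at day 7 by 0.88 ± 0.149 (edgeR adjusted p = 0.000112) and was at -0.46 ± 0.175 at day 14 (0.101). Heyl, a Notch target repressor, fell by 0.85 at day 7 and by 1.05 at day 14 in log2 terms (edgeR adjusted p = 0.0017 and 0.0022). Zfpm2, the FOG2 cofactor that binds GATA4, rose at day 14 by 0.59 ± 0.133 (edgeR adjusted p = 0.00426). Gata5, a GATA factor of endocardium and epicardium, had 3.61 to 11.4 CPM at day 14 against 0 to 2.84 CPM in undamaged hearts, without overlap, as for 6.39% of all genes (3.82 ± 0.863, edgeR adjusted p = 0.00428).

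Of 20 general mesenchymal factors, all tested, 3 rose and 4 fell at day 7, 3 rose at day 14 and 2 rose at day 28, beside the same shares of all genes (24.6%, 10.9% and 6.12%), and with medians of -0.28, -0.04 and -0.12. Prrx2, a paired-related homeobox factor, rose by 1.70 ± 0.296 at day 7 and 2.12 ± 0.32 at day 14 (edgeR adjusted p = 0.000162 and 7.1e-05). Foxp1, a forkhead repressor, rose by 1.03 ± 0.145 and 0.69 ± 0.163 (edgeR adjusted p = 1.38e-05 and 0.00623). Twist1, a basic helix-loop-helix factor of mesenchyme, rose at day 7 by 0.40 ± 0.11 and at day 28 by 0.50 ± 0.106 (edgeR adjusted p = 0.0102 and 0.00507), and Prrx1 rose at day 14 by 0.57 ± 0.142 (0.00962). The 4 that fell at day 7, named after their values were seen, were Twist2 (-0.76), Osr1 (-0.50), Tcf4 (-0.35) and Ebf2 (-0.35), with edgeR adjusted p = 0.0256, 0.0473, 0.0405 and 0.0487. Of the 11 other T-box genes 3 were tested and none passed. Tbx10, Tbx19, Tbx22, Eomes and T had no count in any undamaged library, and Mga, at 69.2 ± 10.1 CPM in undamaged hearts (SD, n = 9), made up nearly all of their sum.

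**Figure D5:**
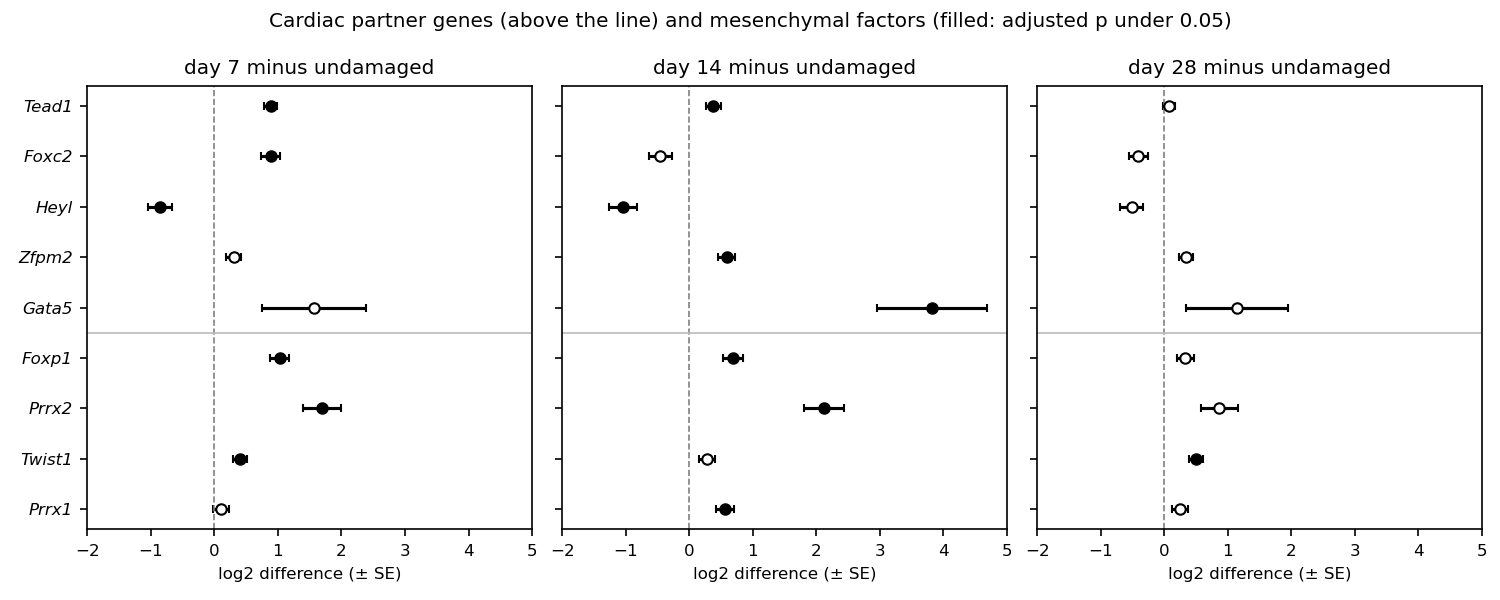
Log2 difference from undamaged hearts (horizontal axis, ± SE) of the named cardiac partner genes and, under the line, the named mesenchymal factors at 3 times, with filled points at an adjusted p under 0.05. Tead1, Foxp1 and Prrx2 lie right of 0 at days 7 and 14, Heyl lies left, and Gata5 reaches 3.82 at day 14.

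Markers of other cells moved with time beside these values. Of 11 measured epicardial or mesothelial markers 10 rose at day 7, 10 at day 14 and 7 at day 28, and their sum was 143 to 287 CPM at day 7, 156 to 383 CPM at day 14 and 61.6 to 236 CPM at day 28, against 61.0 to 128 CPM in undamaged hearts. Wt1 was at 14.2, 47.8 and 14.4 CPM on average at days 7, 14 and 28, against 0.814 CPM in undamaged hearts, and none of the 11 was at 0 throughout. A large part of these sums was Aldh1a2, which averaged 165, 118 and 84.9 CPM at days 7, 14 and 28, against 95.2 CPM in undamaged hearts, and the median log2 difference over the 11 was 4.02, 4.67 and 3.34. The sum of 12 cardiomyocyte markers lay between 9.16 and 83.7 CPM in each library. Of 10 endothelial markers 9 fell and 1 rose at day 7. Of 9 leukocyte markers tested 4 rose at day 7, with sums of 25.5 to 52.1 CPM against 6.62 to 31.9 CPM in undamaged hearts, and Cd3e was at 0 in both. Of 6 conduction markers 4 were tested and none passed, and Isl1 was at 0 at day 7. Of 5 proliferation genes 4 rose at days 7 and 14, with sums of 24.9 to 64.0 CPM at day 7 against 0 to 14.6 CPM in undamaged hearts. Of 12 mural markers 3 rose and 2 fell at day 7, with sums of 693 to 1618 CPM against 385 to 1171 CPM, and of 10 fibroblast markers 4 rose and 5 fell. The 7 activation genes, which include Postn and Cthrc1, all rose at days 7 and 14, with sums of 33102 to 76789 CPM at day 7 and 18086 to 42256 CPM at day 14, against 3976 to 8927 CPM in undamaged hearts. The part of these shifts in the values of the 10 factors was not tested.

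Across the 26 libraries the genes outside the 10 whose log2 CPM followed a factor most closely, among 9022 genes, were Rusc2 for Gata4 (r = 0.91), Usp53 for Gata6 (0.77), Xpc for Hand2 (0.80) and Etv1 for Tbx20 (0.81). For the other T-box genes they were S100a16 for Tbx5 (0.76), Cdk8 for Tbx18 (0.66), Wnt5a for Tbx4 (0.72), Sema6c for Tbx2 (0.80) and Dcps for Tbx3 (0.80). The libraries share times, codes and depths, so these values describe this set of libraries. Among the factors themselves, Tbx5 and Tbx4 correlated at r = 0.51, and at -0.10 once group means were removed, while Gata6 and Hand2 correlated at -0.57 and at -0.52 within groups.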

How the data were processed

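RNA of sorted cells was made into stranded mRNA libraries and sequenced as paired ends on a NextSeq 500, per the labels. The deposited values are raw counts of reads per gene. The submitters' processing notes name bcl2fastq, TopHat, Bowtie2, STAR and Cufflinks with mm10 and no versions, and the counting program, its strand setting and its annotation are not given in the sources used here. Reads outside genes (5.53% to 55.8% of a library, the highest in the positive day 28 library E2) and reads of several genes (0.128% to 0.646%) were left out.

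All 26 libraries entered 1 edgeR 4.0.16 fit (R 4.3.3) of 8 time-by-gate means with 18 residual degrees of freedom, TMM factors, filterByExpr, quasi-likelihood tests (two-sided) and Benjamini-Hochberg adjustment over 14052 genes. CPM use TMM factors, ± after CPM is SD and after a log2 difference SE. Alternatives were RLE factors, DESeq2, limma-voom with and without a random block, other filters, no gate, subsets of libraries, and each library left out. The fit was tested on simulated counts drawn independently for each library. That test leaves out the correlation between libraries of a code (0.39 in limma-voom), so it does not cover this feature of the data. No library pair held identical counts.

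The gate of day 7 libraries 1A, 1B, 4A and 4B was read from the names of the deposited tables. Libraries that share a code deviated together from their group means (r = 0.184 to 0.406 over the code pairs), so the codes, which come from the titles, were treated as pairs in the fits with a block, while the fit above holds no block. The members and gene lists were chosen with earlier results of these data known. Named genes are all 10 members, at most 6 partner and 4 mesenchymal genes called against undamaged hearts by smallest p, and the closest correlate of each member, of which some are not reported here. All 10 symbols matched GENCODE M21 (GRCm38), and 5 matched a RefSeq promoter.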

Additional observations from a re-analysis of the deposited data

Results flagged for a closer look

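Of 30 groups of 4 or more libraries examined for a value far from the rest, 4 held one, and chance alone gives about 1 in 20. Gata6 was at 58.6 CPM in the undamaged negative library A6, against 90.8 to 97.1 CPM in the other 3. Hand2 was at 62.6 CPM in the positive day 28 library B6, in which 18.7% of reads lay outside genes, against 25.5 to 30.5 CPM in the other 3. Tbx5 was at 1.01 CPM in the positive day 28 library F2, against 1.26 to 1.31 CPM, a narrow gap. Tbx18 was at 51.3 CPM in the undamaged negative library B7, against 43.6 to 44.6 CPM.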

How the results depend on the processing

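No called difference of a factor changed sign under the alternatives run. The counts below list the larger changes only, so a setting left out can still differ. At day 7 DESeq2 added Gata4 and Gata6 (adjusted p = 0.0425 and 0.0478). Leaving out the 3 gene-poorest undamaged libraries added Gata4 and Tbx3 there (edgeR adjusted p = 0.0381 and 0.0137). At day 14 DESeq2 added Gata4 (adjusted p = 0.0495), and the random replicate block lost Gata6 and Hand2 (limma-voom adjusted p = 0.0928 and 0.0526). The number of factors called against undamaged hearts with gates averaged (4, 6 and 1 at days 7, 14 and 28) became 2 at day 7 with the random replicate block, 1 with labelled gates only and 0 without the Xist-high libraries (over 20 CPM). At day 14 it became 3 with labelled gates and 2 with prefixed libraries, and without Xist-high ones only 1 library a gate remained. At day 28 it became 2 with DESeq2, 0 with limma-voom with or without the block, 2 with prefixed and 3 with letter-coded libraries. Between day 28 and day 7 it became 0 with the block, labelled gates or no Xist-high libraries. In the positive gate, day 7 (0) became 2 with DESeq2 and 1 without the day 28 positive libraries E2 and B6 (chosen after seeing the data), day 14 (0) became 1 with DESeq2, limma-voom or with the 3 gene-poorest undamaged libraries left out and 2 with the block, and day 28 (1) became 0 with limma-voom, the block or without E2 and B6 and 2 with letter-coded libraries. In the negative gate, day 7 (3) became 5 with DESeq2 and 0 with labelled gates or without Xist-high libraries, day 14 (0) became 2 with DESeq2 or without E2 and B6 and 1 with the block or without Xist-high libraries, and day 28 (0) became 1 with DESeq2. Between undamaged gates (0) it became 1 with DESeq2, limma-voom or without E2 and B6 and 2 with the block. The fixed replicate block for paired codes was fitted only for gate differences and gate by time interactions, where no factor was called. The time comparisons were not fitted with it. Leaving out 1 library at a time gave 4 to 7 at day 7, 1 to 6 at day 14, 1 to 2 at day 28 and between days 28 and 7, 0 to 1, 0 to 1 and 1 to 1 in the positive gate, 2 to 5, 0 to 1 and 0 to 0 in the negative gate, and 0 to 1 between undamaged gates. Over all genes 3452, 1535 and 860 were called at days 7, 14 and 28. These became 1196 at day 7 with labelled gates, 1035, 679 and 525 without Xist-high libraries, 2457 and 1346 at days 14 and 28 with the 3 gene-poorest undamaged libraries left out, and at day 28 1333 with DESeq2, 359 with the block, 1624 prefixed, 2262 letter-coded and 553 without E2 and B6. Fewer libraries entered each subset, yet the counts moved in both directions, and the causes were not tested. Tbx4, Tbx3 and Tbx5 had medians of 2.5, 18.5 and 12.5 counts a library at day 7, which limits their precision.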
